A study of Drosophila melanogaster with 41 samples.

Results

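The Dscam family of Drosophila melanogaster comprises 4 genes, Dscam1 (FBgn0033159), Dscam2 (FBgn0265296), Dscam3 (FBgn0261046) and Dscam4 (FBgn0263219). They were taken by their FlyBase symbols from the deposited exon tables, where they make up 4 of 17027 genes or merged genes and 231 of 84619 exon bins. A bin is a stretch of a gene that the same annotated exons cover along its whole length. Each has its own locus on the dm6 genome: Dscam1 lies on the minus strand at chr2R:7317924-7381899 with 119 bins, Dscam2 on the minus strand at chr3L:7159199-7189931 with 34 bins, Dscam3 on the minus strand at chr3R:17473935-17505667 with 40 bins, and Dscam4 on the plus strand at chr3L:8238647-8282398 with 38 bins.

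Dscam proteins are single-pass membrane receptors of the immunoglobulin superfamily. Neurites that carry the same isoform bind each other and separate, which lets a neuron tell its own branches from those of its neighbours and lets like axons tile. Dscam1 obtains its isoforms from clusters of mutually exclusive exons. Exon 4, exon 6 and exon 9 encode sequence of extracellular immunoglobulin domains, and exon 17 encodes the transmembrane segment. Exons 19 and 23 belong to the cytoplasmic tail and can be skipped. Dscam2 chooses between a pair of exon 10 variants for an immunoglobulin domain. Dscam3 and Dscam4 are less studied paralogues.

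The study asked how far the neuronal RNA-binding protein ELAV and its nuclear paralogue, the nuclear form of FNE (nFNE), can replace each other in neuronal RNA processing. mRNA was sequenced from 41 libraries of males in 11 groups, each library a pool of 12 to 15 whole embryos or adult heads, so that fewer neurons and less RNA per neuron cannot be told apart. Late embryos (14 to 16 h after egg laying, AEL) were wild type, Δelav, elavmin or Δelav,fnenFNE, with 4 libraries each. Heads of adults aged 72 h were wild type, elavmin or Δelav,fnenFNE, with 3 libraries each. Early embryos (7 to 8 h AEL) were fnenFNE, elavmin,fnenFNE, Δelav,fnenFNE or elavnFNE, with 4 libraries each, and fnenFNE was their control. Δelav is a deletion of the elav coding region that is lethal to embryos. elavmin is a frameshift allele whose truncated protein, with its last RNA-recognition motif disrupted, is present at a very low level. In fnenFNE both introns beside the fne mini-exon were removed, so that only tagged nuclear FNE is made, and the early control and 2 of its 3 mutants carry it. In elavnFNE the elav coding region was replaced by tagged nFNE. The fne gene of these flies lacks the mini-exon, so that it makes only cytoplasmic FNE. They thus differ from the early control and the other early mutants at fne as well as at elav. The alleles are carried by the whole animal.

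Libraries held between 17668742 and 51377771 counts on exon bins. The elav gene itself was examined in the 2007-nt bin that holds most of its coding sequence (1448 nt). The share of elav counts on this bin was 35.2% ± 1.46 (SD, n = 4) in wild-type late embryos, 18.6% ± 0.596 in Δelav and 16.9% ± 1.67 in Δelav,fnenFNE. Its level was nevertheless higher in Δelav (107 CPM, counts scaled to the library total) and Δelav,fnenFNE (101 CPM) than in wild type (61.3 CPM), as was the whole gene (576 CPM in Δelav against 174 CPM). No bin known to lie wholly inside the deleted part was examined, so these counts do not check the deletion labels. Of 7 neuronal markers, 0 stayed under 1 CPM in all libraries of any late or head group, and their summed level was 2152 to 2397 CPM in wild-type embryos, 1822 to 2129 CPM in Δelav and 7556 to 8663 CPM in wild-type heads. The early control summed to 182 to 222 CPM for the same 7 genes and to 254 to 275 CPM for 3 neuroblast markers.

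Between wild-type ages, alternative bins of Dscam2, Dscam3 and Dscam4 that are bounded by pairs of competing splice sites differed, so the sites are shown here before their values. The sequences are from RefSeq (Release 6, the dm6 build), 5′ to 3′ on the strand of the gene, with the splice-site dinucleotide in capitals. In Dscam2 a 102-nt extension of exon 19 (chr3L:7164248-7164349) is kept when the outer of a pair of 5′ splice sites is used.
Dscam2 exon 19 inner 5′ splice site, chr3L:7164335-7164364: ccaccaccagccgcgGTactgaacccacca
Dscam2 exon 19 outer 5′ splice site, chr3L:7164233-7164262: ccgttccataatatcGTgcgtttgtttatt
Dscam2 also ends in either of a pair of last exons, each with its own 3′ splice site.
Dscam2 upstream last exon, chr3L:7163492-7163521: gctttgtttttgcAGactctagactaatac
Dscam2 downstream last exon, chr3L:7163165-7163194: tccattccgccgtAGgcatcatctaccatg
The last exon of Dscam3 is extended by 89 nt, and exon 30 of Dscam4 by 69 nt, through an outer 3′ splice site.
Dscam3 last exon outer 3′ splice site, chr3R:17474991-17475020: gttgcatgcctgtAGcgtgtacctaccccg
Dscam3 last exon inner 3′ splice site, chr3R:17474902-17474931: actgcgaacctctAGgtatcacgagaagaa
Dscam4 exon 30 outer 3′ splice site, chr3L:8280245-8280274: tactaaactttttAGaatcggacaatccag
Dscam4 exon 30 inner 3′ splice site, chr3L:8280314-8280343: acatcccaattacAGaatatgacacactcg

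In wild type the family divided by age. Dscam1 stood at 470 ± 16.4 CPM (SD, n = 4) in late embryos and 242 ± 20 CPM (n = 3) in heads, a fall by 1.16 on the log2 scale (SE 0.0653, adjusted p = 4.27e-09, edgeR quasi-likelihood test with Benjamini-Hochberg adjustment over all genes). The other 3 genes rose from late embryo to head. Dscam2 went from 90.2 ± 7.22 to 523 ± 39.7 CPM (5.03-fold, adjusted p = 2.5e-11 by the same edgeR test). Dscam3 went from 66.5 to 192 CPM (2.5-fold) and Dscam4 from 86.4 to 258 CPM (2.59-fold). Of all genes tested, 85.1% differed between these samples, so that 4 of 4 members is close to the background. Age and tissue differ together here.

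Early embryos had Dscam1 but little of the rest. The fnenFNE control held 347 ± 36 CPM of Dscam1, 19.7 ± 3.83 CPM of Dscam4, 1.97 CPM of Dscam2 and 0.128 CPM of Dscam3. Dscam3 was too low to be tested in any early comparison. The order within the early control was Dscam1, Dscam4, Dscam2, Dscam3, and the libraries of neighbours in that order did not overlap. No test against late wild-type embryos was made, since they differ in the fne allele and in read length as well as in age. Per kilobase of summed bins, late wild-type embryos had 17.7 CPM for Dscam1, 10.9 for Dscam4, 7.81 for Dscam3 and 6.99 for Dscam2. In wild-type heads the order on that scale was Dscam2 (40.5), Dscam4 (32.6), Dscam3 (22.5) and Dscam1 (9.15). The length of Dscam1 counts every mutually exclusive exon although a transcript holds only 1 of each cluster, so its value per kilobase is understated.

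**Figure D1:**
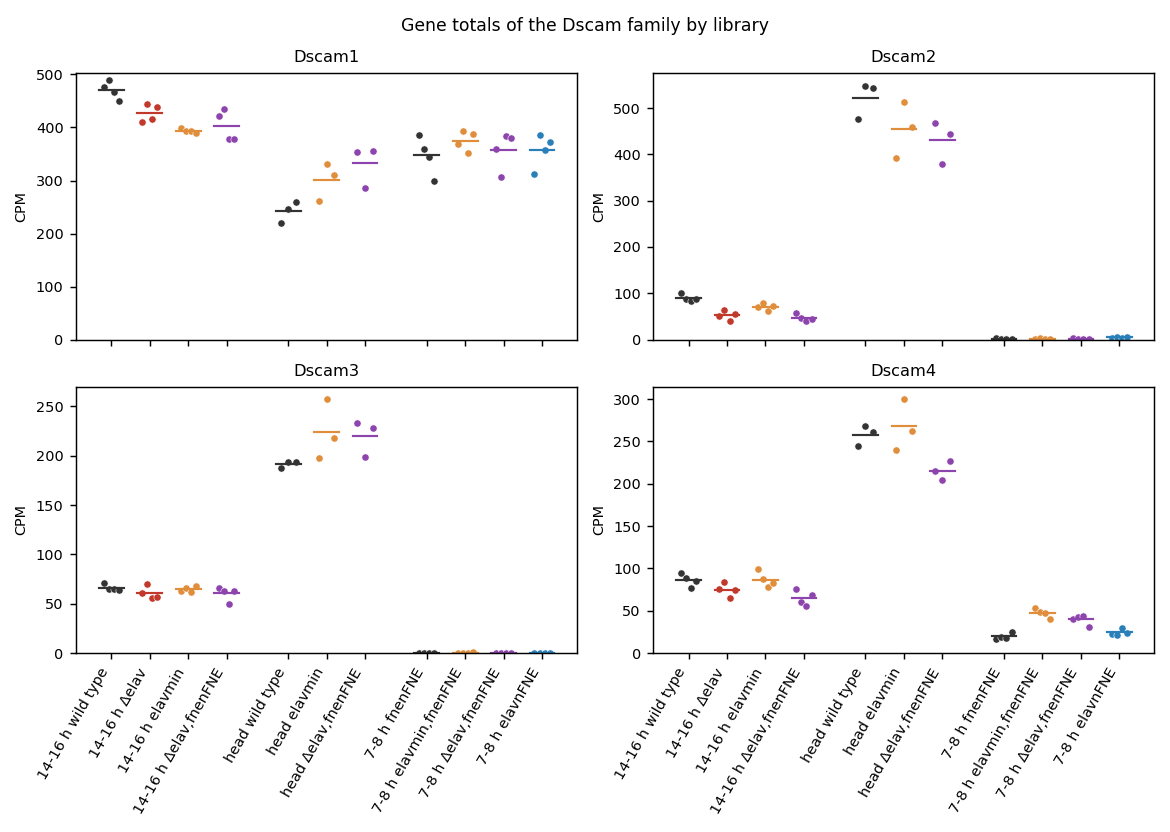
Gene totals of the 4 Dscam genes in every library, in CPM (counts scaled to the library total) on linear axes that start at 0. Points are libraries and horizontal lines are group means. Dscam1 is lower in heads than in late embryos, whereas Dscam2 goes from 84 to 101 CPM in late wild-type embryos to 477 to 548 CPM in wild-type heads, and the early embryos have Dscam2 and Dscam3 near 0.

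Across the 11 group means, the patterns of Dscam2 and Dscam3 were most alike within the family (Pearson r = 0.973 on the log2 scale), followed by Dscam2 and Dscam4 (0.938) and Dscam3 and Dscam4 (0.896). Dscam1 had negative values with the others (-0.458 to -0.161). Among 9300 genes, the genes most like Dscam2 were Tbh, which encodes the enzyme that makes octopamine, CG1695 and mAChR-B, a muscarinic acetylcholine receptor (0.998, 0.997 and 0.997). The nearest to Dscam3 were CG42322, Cbp53E and Nlg4, a neuroligin (0.999 each). The nearest to Dscam4 were QIL1 and mfrn (0.983 each) and Fatp1 (0.982). The nearest to Dscam1 were LRR (0.977), Aprt (0.950) and jagn (0.946). These points share libraries and are dominated by the contrast of ages.

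Without ELAV, late embryos lost Dscam2 RNA. Dscam2 stood at 100.6, 87.97, 84.01 and 88.01 CPM in wild type and at 50.16, 63.53, 41.02 and 55.89 CPM in Δelav. The groups did not overlap, and the level fell to 0.598 of wild type (log2 -0.74, SE 0.128, adjusted p = 0.00365, edgeR quasi-likelihood test). It was the only one of the 4 genes called, where 22.7% of all genes tested were called. Dscam1, Dscam3 and Dscam4 had log2 differences of -0.10, -0.09 and -0.18 that did not pass (adjusted p = 0.129, 0.414 and 0.163 in edgeR). Without Δelav replicate 2 the count of genes called was 3 instead of 1, with Dscam1 (log2 -0.13) and Dscam3 (log2 -0.17) added.

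The other late mutants had the same direction for Dscam2. In elavmin it stood at 70.4, 79.35, 61.6 and 73.32 CPM, all below the lowest wild-type library, and fell by 0.34 on the log2 scale (SE 0.0775, adjusted p = 0.00752 in edgeR), a call lost with all late groups in 1 fit (log2 -0.35, adjusted p = 0.0602). In Δelav,fnenFNE it stood at 56.67, 47.41, 40.32 and 44.83 CPM and fell by 0.91 (SE 0.106, adjusted p = 0.000243). Its level in Δelav,fnenFNE against Δelav was not called (log2 -0.16, SE 0.149, adjusted p = 0.564), with 0 of 4 genes called by edgeR and by DESeq2, 0 at an unadjusted p under 0.05, and 4.79% of all genes called. These comparisons share the wild-type or the Δelav libraries. The summed level of the 7 neuronal markers was 1982 to 2211 CPM in elavmin and 2010 to 2160 CPM in Δelav,fnenFNE, with 0 of 7 under 1 CPM in all libraries. Their part in the Dscam2 difference was not tested.

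Dscam1 RNA fell in 2 late mutants by less. It was 394 ± 4.23 CPM in elavmin (log2 -0.26, SE 0.0345, adjusted p = 0.000192 in edgeR) and 404 ± 29.2 CPM in Δelav,fnenFNE (log2 -0.20, SE 0.0634, adjusted p = 0.0361). In the latter the call was lost without any 1 wild-type library (adjusted p = 0.052 to 0.102) and without Δelav,fnenFNE replicate 3 or 4 (0.0884 and 0.106). Dscam4 fell in Δelav,fnenFNE, from 86.4 to 64.9 CPM (log2 -0.39, SE 0.103, adjusted p = 0.0187), and lost the call without Δelav,fnenFNE replicate 2 (adjusted p = 0.0528). Its level in Δelav,fnenFNE against Δelav was not called (log2 -0.21, adjusted p = 0.28 in edgeR). The 5 hemocyte markers summed to 480 to 503 CPM in wild-type late embryos, 416 to 424 CPM in Δelav, 410 to 432 CPM in elavmin and 357 to 424 CPM in Δelav,fnenFNE, with 0 of 5 under 1 CPM in all libraries. Their part in the Dscam values was not tested. The background was 29.7% of genes called in elavmin, where 2 of 4 members were called, and 25.6% in Δelav,fnenFNE, where 3 of 4 were. Between elavmin and Δelav, with a background of 16.3%, 1 of 4 was called: Dscam1 was lower in elavmin (log2 -0.15, adjusted p = 0.0394), a call lost without Δelav replicate 4 (adjusted p = 0.116) or without any 1 elavmin library (0.0588 to 0.0804), and with all late groups in 1 fit (0.0531). Dscam2 was not called there (log2 0.40, SE 0.134, adjusted p = 0.0796 in edgeR), but was by DESeq2 (log2 0.40, adjusted p = 0.0144) and without Δelav replicate 2 (log2 0.51, adjusted p = 0.0299).

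In heads, Dscam2 and Dscam4 fell in Δelav,fnenFNE. Dscam2 stood at 476.9, 547.8 and 543.2 CPM in wild type and at 468.2, 378.5 and 444.2 CPM in the mutant, which did not overlap (log2 -0.45, SE 0.105, adjusted p = 0.0115 in edgeR). Without wild-type replicate 3 the call was lost (adjusted p = 0.056). Dscam4 stood at 244.5, 268.5 and 260.9 CPM against 214.8, 204.1 and 226.3 CPM, also without overlap (log2 -0.44, SE 0.0772, adjusted p = 0.00307). The background was 28.3%. Dscam1 had the opposite sign, with 332 ± 40.3 CPM against 242 ± 20 CPM (log2 0.28, adjusted p = 0.0865), and passed the test without Δelav,fnenFNE replicate 2 (log2 0.39, adjusted p = 0.0064). In these heads the 5 photoreceptor markers summed to 471 to 508 CPM, against 56250 to 59520 CPM in wild type, and the 5 muscle markers to 12000 to 12390 CPM against 6619 to 8253 CPM. The 3 fat body markers summed to 4104 to 4993 CPM against 2039 to 3094 CPM, the 4 glial markers to 344 to 368 CPM against 291 to 298 CPM, and the 7 neuronal markers to 6934 to 7535 CPM against 7556 to 8663 CPM. None of these marker genes was under 1 CPM in all Δelav,fnenFNE heads. The part of this make-up in the Dscam values was not tested.

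In elavmin heads 0 of 4 genes were called by edgeR and 0 by DESeq2, where 20.2% of all genes were called. At an unadjusted p under 0.05 in edgeR there was 1, Dscam2 (log2 -0.29, adjusted p = 0.089). Without elavmin replicate 2 it was called (log2 -0.39, adjusted p = 0.0197). Without elavmin replicate 1, Dscam1 was called instead (log2 0.31, adjusted p = 0.0399). Photoreceptor markers summed to 32790 to 33280 CPM in these heads.

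The change of Dscam1 differed between heads and late embryos. For elavmin the log2 difference from wild type was -0.26 in embryos and 0.22 in heads, and for Δelav,fnenFNE it was -0.20 and 0.28. The difference of the 2 changes was 0.49 on the log2 scale for elavmin (SE 0.103, adjusted p = 0.00399, edgeR interaction test) and 0.49 for Δelav,fnenFNE (SE 0.134, adjusted p = 0.016). It was the only member called in either test, where 17.6% and 22.9% of all genes were called. Both rest on the same wild-type libraries. In the second, Dscam2 was also called without late Δelav,fnenFNE replicate 1 (log2 0.56, adjusted p = 0.012) or head Δelav,fnenFNE replicate 2 (log2 0.56, adjusted p = 0.0206).

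In early embryos Dscam4 rose. It stood at 17.13, 18.72, 17.51 and 25.33 CPM in the fnenFNE control, at 53.72, 49.08, 47.01 and 40 CPM in elavmin,fnenFNE and at 40.5, 43.08, 44.1 and 31.34 CPM in Δelav,fnenFNE. Every library of both mutants lay above every control library. The rise was 2.39-fold in elavmin,fnenFNE (log2 1.26, SE 0.136, adjusted p = 0.00088 in edgeR) and 2.04-fold in Δelav,fnenFNE (log2 1.03, SE 0.153, adjusted p = 0.0069). In elavnFNE, Dscam4 stood at 22.66, 21.98, 30.22 and 24.24 CPM and was not called (log2 0.34, adjusted p = 0.187), though it was without the highest control library, replicate 4 (log2 0.49, adjusted p = 0.0123). Against Δelav,fnenFNE it was lower in elavnFNE (log2 -0.70, SE 0.132, adjusted p = 0.00759). The summed neuroblast markers were 296 to 316 CPM in elavmin,fnenFNE, 352 to 378 CPM in Δelav,fnenFNE and 306 to 334 CPM in elavnFNE, with 0 of 3 genes under 1 CPM in all libraries, against 254 to 275 CPM in the control. The summed neuronal markers were 175 to 205 CPM, 192 to 226 CPM and 140 to 172 CPM, with 1 of 7 genes under 1 CPM in all libraries of Δelav,fnenFNE. Their part in the Dscam4 values was not tested.

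Dscam2 rose in early elavnFNE embryos, from a low level: 3.539, 6.359, 4.208 and 4.833 CPM against 2.452, 1.713, 1.782 and 1.913 CPM (2.38-fold, log2 1.25, SE 0.209, adjusted p = 0.00238 in edgeR). Against Δelav,fnenFNE it was also higher (log2 1.18, adjusted p = 0.00258). In each early comparison with the control 1 of 3 tested members was called, where 6.4%, 2.96% and 9.71% of all genes were called in elavmin,fnenFNE, Δelav,fnenFNE and elavnFNE. Between elavnFNE and Δelav,fnenFNE 2 of 3 were called (background 7.15%). Between elavmin,fnenFNE and Δelav,fnenFNE 0 of 3 were called by edgeR and by DESeq2, with 0 at an unadjusted p under 0.05 (background 2.52%).

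In Δelav late embryos the called bins of the family lay mostly in the 3′ end and the cytoplasmic tail of Dscam1. Exon 24, the last exon, has a proximal bin of 1211 nt (chr2R:7319554-7320764), present in all 75 annotated transcripts, and a distal bin of 1630 nt (chr2R:7317924-7319553) that lies wholly in the 3′ UTR. In the annotation 1 of 75 transcripts, Dscam1-RCD, reaches the distal bin. The same transcript lacks exons 19 and 23 and has a 12-nt extension of exon 18, whereas the other 74 have both exons, lack the extension and end at the proximal bin. Short reads cannot show whether these stretches lie on 1 molecule in these samples.

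Those 4 stretches made up 4 of the 5 bins called in Δelav late embryos, of 176 member bins tested (background 1.51% of all bins, adjusted p under 0.01). The distal 3′ UTR took 40.54%, 41.79%, 40.43% and 41.75% of exon 24 counts in wild type and 30.2%, 34.26%, 28.79% and 32.02% in Δelav. The groups did not overlap, and its usage relative to the whole of Dscam1 fell by 0.69 on the log2 scale (SE 0.0841, adjusted p = 1.3e-12, edgeR exon usage test over all bins). The proximal bin was not called (log2 -0.08, SE 0.0809, adjusted p = 1).

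Exons 19 and 23 were included more often in Δelav. Exon 19 (chr2R:7323819-7323968, 150 nt) took 17.74%, 16.01%, 17.26% and 20.27% of the counts on exons 18 to 20 in wild type and 25.02%, 23.89%, 26.77% and 26.99% in Δelav (usage log2 0.79, SE 0.0931, adjusted p = 1.57e-13, edgeR exon usage test). Exon 23 (chr2R:7321583-7321649, 67 nt) took 9.752%, 10.38%, 9.532% and 8.759% of the counts on exons 21 to 23 in wild type and 14.92%, 14.9%, 16.5% and 16.46% in Δelav (log2 0.84, SE 0.119, adjusted p = 2.09e-09). Neither exon's groups overlapped. The 12-nt extension of exon 18 (chr2R:7324570-7324581), which falls outside the naming rule and was singled out after its values were seen, went the other way: it had 18.74%, 20.18%, 15.43% and 17.11% of exon 18 counts in wild type and 10.34%, 8.83%, 8.178% and 9.091% in Δelav (log2 -1.09, SE 0.161, adjusted p = 1.5e-08). These shares are of counts and are not scaled for length. Per base the extension had 69.1% to 75.6% in wild type and 52.2% to 58.5% in Δelav. Reads are longer than this 12-nt bin, so neither scale gives the fraction of transcripts that hold the extension. The pair of stretches that fell are those held by Dscam1-RCD, and the pair that rose are those it lacks.

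The other late mutants kept more of the distal 3′ UTR. Its share was 39.69%, 37.47%, 38.85% and 39.06% in elavmin and 38.32%, 40.32%, 36.85% and 38.35% in Δelav,fnenFNE. Both groups lay below every wild-type library and above every Δelav library. Against Δelav the usage was higher in elavmin (log2 0.51, SE 0.0864, adjusted p = 2.9e-05 in edgeR) and in Δelav,fnenFNE (log2 0.81, SE 0.114, adjusted p = 4.77e-09). Against wild type the share differed by -2.36 and -2.67 percentage points (exact permutation p = 0.0286 each, the smallest that 4 against 4 allows, adjusted p = 0.0786 over 99 such tests), while the usage test called neither (adjusted p = 0.577 and 1 in edgeR).

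The mean shares of exons 19 and 23 also stood between wild type and Δelav in these mutants. Exon 23 averaged 12.3% ± 0.594 (SD, n = 4) in elavmin and 11.8% ± 0.478 in Δelav,fnenFNE, above all wild-type libraries and below all Δelav libraries. Exon 19 averaged 20.6% ± 1.64 in elavmin, which overlapped wild type (exact permutation p = 0.0857), and 22% ± 0.794 in Δelav,fnenFNE, which did not (exact permutation p = 0.0286, adjusted p = 0.0786). Between elavmin and Δelav the usage of exon 19 was lower in elavmin (log2 -0.46, SE 0.0945, adjusted p = 0.00224 in edgeR), a call lost without Δelav replicate 1, 3 or 4 or elavmin replicate 2 or 3 (adjusted p = 0.0113 to 0.0636), or with all late groups in 1 fit (0.0139). The extension of exon 18 averaged 14.8% ± 1.27 in elavmin and 13.6% ± 1.96 in Δelav,fnenFNE.

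**Figure D2:**
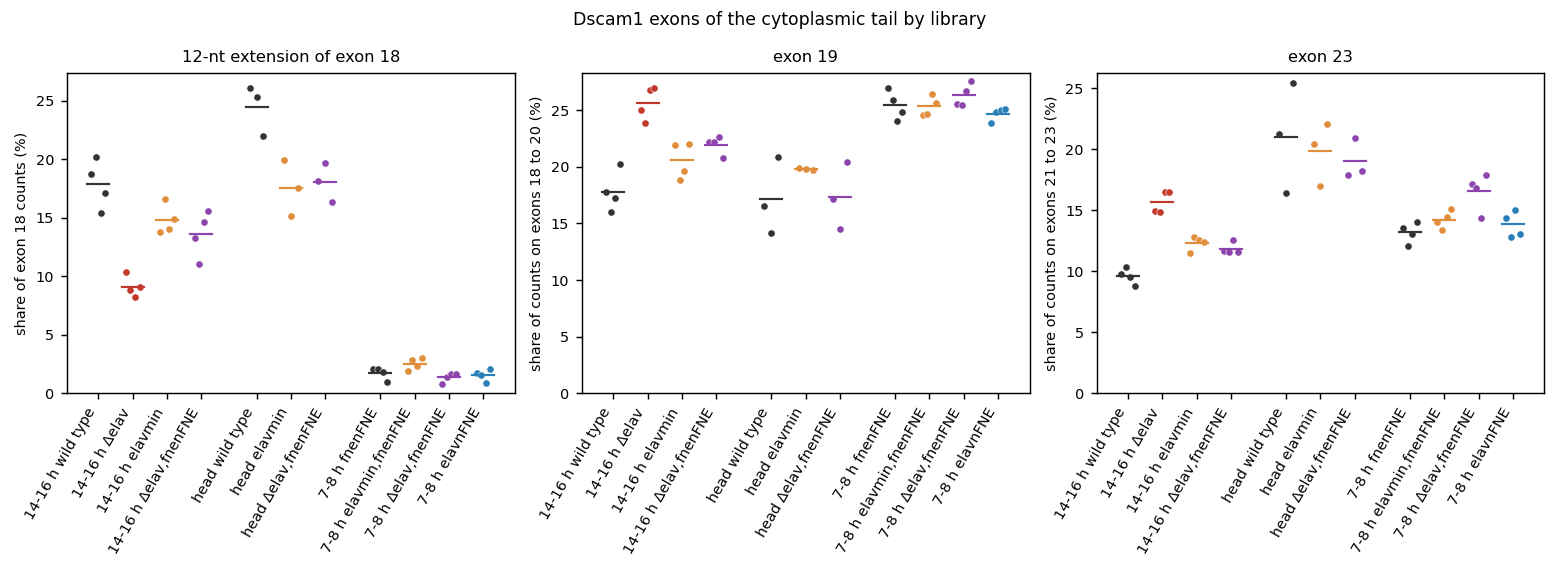
Shares of counts (%) of the 12-nt extension of exon 18, exon 19 and exon 23 of Dscam1 in every library, with points for libraries and horizontal lines for group means; axes start at 0. In late embryos Δelav is lowest for the extension (8.18% to 10.3%) and highest for exons 19 (23.9% to 27%) and 23 (14.9% to 16.5%). Early embryos, sequenced with another read length, have an extension share of at most 2.96%.

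Fewer member bins passed in the other late comparisons. In elavmin against wild type 3 of 175 were called (background 1.39%), in Δelav,fnenFNE against wild type 0 of 175 by edgeR with 15 at an unadjusted p under 0.05 and 2 called by DESeq2 (background 0.705%), in elavmin against Δelav 4 of 174 (background 0.361%), and in Δelav,fnenFNE against Δelav 1 of 174 (background 0.604%). In the third of these the called bins were the distal 3′ UTR, exon 19 and the exon 4 variants 4.7 and 4.5. Of the bins called in elavmin against wild type, 1 was called without wild-type replicate 2 or elavmin replicate 4, against 3 with all libraries.

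Early embryos had little of the distal 3′ UTR, and the mutants had less still. Early and late libraries also differ in read length, and their shares were not tested against each other. Its share of exon 24 counts was 15.77%, 15.38%, 17.95% and 13.63% in the fnenFNE control, at 7 to 8 h AEL. It was 5.398%, 5.403%, 4.581% and 4.188% in elavmin,fnenFNE and 3.254%, 3.967%, 5.611% and 4.581% in Δelav,fnenFNE, far under the control and overlapping each other. In elavnFNE, where nFNE is made from the elav locus, it was 8.829%, 10.73%, 7.313% and 10.09%, between the control and the other mutants with no overlap on either side.

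The usage of the distal 3′ UTR relative to the whole of Dscam1 fell by 1.83 on the log2 scale in elavmin,fnenFNE (SE 0.141, adjusted p = 9.3e-27, edgeR exon usage test), by 1.87 in Δelav,fnenFNE (SE 0.161, adjusted p = 1.66e-22) and by 0.80 in elavnFNE (SE 0.14, adjusted p = 1.9e-05). The last call was at the edge of the threshold without control replicate 3 (log2 -0.65, adjusted p = 0.0101). From Δelav,fnenFNE to elavnFNE it rose by 1.07 (SE 0.177, adjusted p = 5.16e-06). It was the only member bin called in each of these 4 comparisons, of 86, 85, 76 and 80 tested, where 0.153%, 0.634%, 0.313% and 0.294% of all bins were called. Between elavmin,fnenFNE and Δelav,fnenFNE 0 of 82 were called by edgeR and by DESeq2, with 3 at an unadjusted p under 0.05 (background 0.108%).

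Neither tail exon was called in early embryos. Exon 19 averaged 25.5% ± 1.28 in the control and between 24.7% and 26.4% in the 3 mutants, and each of them overlapped the control. Exon 23 averaged 13.2% ± 0.827 in the control and 16.6% ± 1.53 in Δelav,fnenFNE, whose lowest library was above the highest control library (exact permutation p = 0.0286, adjusted p = 0.0786). The extension of exon 18 averaged between 1.37% and 2.52% in the 4 groups, and single libraries had 0.8% to 2.96% of counts, or 8.99% to 27.2% per base. Neither scale gives the fraction of transcripts that hold it, and read length differs from that of late embryos. The 2 to 12 counts a library held on that extension in the control and in Δelav,fnenFNE were too few for it to enter the test.

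In heads the distal 3′ UTR did not separate the genotypes as it did in embryos. Its share was 37.04%, 35.52% and 33.78% in wild type, 38.42%, 30.27% and 36.09% in elavmin, and 39.98%, 41.88% and 37.44% in Δelav,fnenFNE. The elavmin heads overlapped wild type, and the Δelav,fnenFNE heads lay above it (exact permutation p = 0.1, the smallest that 3 against 3 allows). The usage test called neither (adjusted p = 1 and 0.606 in edgeR). The extension of exon 18 had 24.4% ± 2.16 in wild-type heads, 17.5% ± 2.36 in elavmin and 18% ± 1.68 in Δelav,fnenFNE (usage log2 -0.64 and -0.65, adjusted p = 0.505 and 0.863). Exon 23 averaged 21% ± 4.49 in wild-type heads, 19.8% ± 2.63 in elavmin and 19% ± 1.67 in Δelav,fnenFNE.

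**Figure D3:**
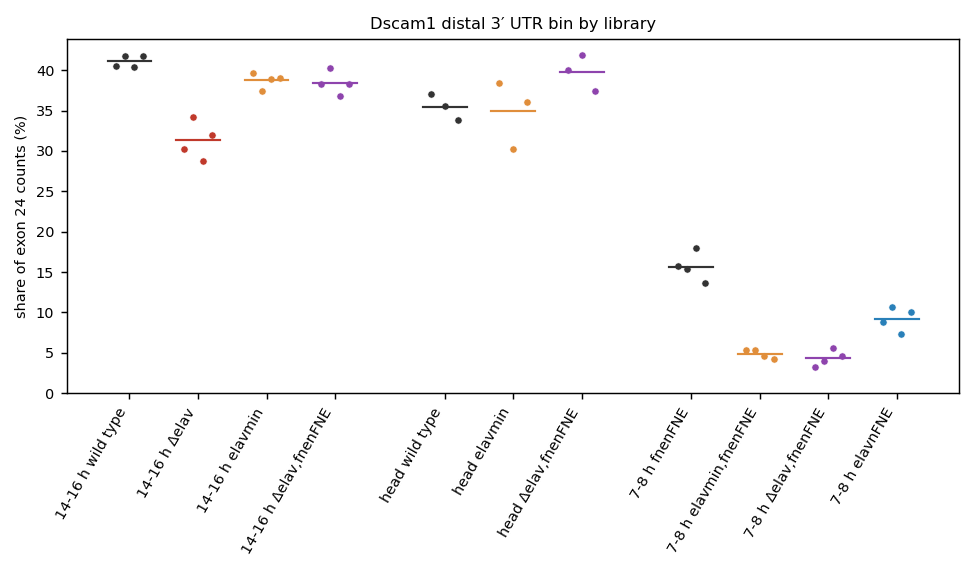
Share (%) of the counts on Dscam1 exon 24 that fall on the distal 3′ UTR bin, in every library, with points for libraries and horizontal lines for group means; the axis starts at 0. Late Δelav embryos (28.8% to 34.3%) lie under all other late embryos, early control embryos have 13.6% to 18%, and early elavnFNE embryos (7.31% to 10.7%) lie between the control and the other early mutants.

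Between wild-type ages, exon 23 was the member bin with the smallest adjusted p. It took 21.28%, 16.45% and 25.41% of the counts on exons 21 to 23 in wild-type heads, above the 8.76% to 10.4% of late embryos (usage log2 1.48, SE 0.144, adjusted p = 4.15e-20 in edgeR). Exon 19 did not go with it: its share was 17.2% ± 3.38 in heads and 17.8% ± 1.79 in embryos. The distal 3′ UTR took 35.4% ± 1.63 of exon 24 in heads against 41.1% ± 0.744 in late embryos, but its usage relative to the whole gene was level (log2 -0.02, SE 0.0973, adjusted p = 0.947). The proximal bin was higher in heads (log2 0.33, SE 0.0926, adjusted p = 0.00421 in edgeR), a call lost without head replicate 2 (adjusted p = 0.0369) or late replicate 2, 3 or 4 (0.0153 to 0.0298), or with all groups in 1 fit (0.0775). Of 179 member bins tested 24 were called, 17 higher and 7 lower, beside a background of 14.5% of all bins, with 7.42% higher and 7.07% lower. Exons 2, 3, 7 and 8 of Dscam1, chosen after their values were seen, fell by 0.451 to 0.537 on the log2 scale.

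The transmembrane exon 17 has the variants 17.1 and 17.2. Variant 17.2 took 51.6% ± 2.7 of exon 17 counts in wild-type late embryos, 52.8% ± 3.65 in Δelav, 55.5% ± 2.97 in Δelav,fnenFNE and 61% ± 3.37 in elavmin. The elavmin libraries (58.1% to 65.7%) lay above all wild-type libraries (48.5% to 54.7%; exact permutation p = 0.0286, adjusted p = 0.0786). Wild-type heads had 39.7% ± 5.13, under every late wild-type library, and the early control had 57.5% ± 2.66.

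Nearly all variants of the ectodomain clusters had counts. All 12 variants of exon 4 and all 33 of exon 9 had counts in every group, and all 48 of exon 6 in every group but wild-type heads, which had 47. Few of the 48 exon 6 variants had enough counts for the usage test. Against wild type it covered 3 in late Δelav, 1 in late elavmin, 2 in late Δelav,fnenFNE and 0 in mutant heads. Against the early control it covered 1 or 2, so the bin tests say little about exon 6. Depth limits what single variants can show: a library held 231 to 490 counts on the exon 4 cluster in late embryos and 89 to 278 in heads, 70 to 496 on exon 6 over all groups, and 376 to 1633 on exon 9. The evenness of a cluster was summarised by its effective number of variants, the exponential of the Shannon entropy, which equals the number of variants when all are used alike. It was 11.3 ± 0.232 for exon 4 and 39.6 ± 1.44 for exon 6 in wild-type late embryos. For exon 4 it was higher in early Δelav,fnenFNE (10.97) and elavmin,fnenFNE (10.86) than in their control (10.45), without overlap. The exact permutation p was 0.0286 each (adjusted p = 0.0786), and with the Simpson index both overlapped the control. The other mutants overlapped their controls for exon 4, and all mutants did for exon 6.

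The effective number of exon 9 variants was lower in mutant embryos than in the control of their age. Its effective number was 29.73, 30.91, 29.71 and 28.68 in wild-type late embryos and 25.76, 26.25, 25.6 and 26.57 in Δelav. It was 26.6 ± 0.226 in elavmin and 27.9 ± 0.501 in Δelav,fnenFNE. It was 25 ± 0.554 in the early control, 22.1 ± 1.18 in elavmin,fnenFNE, 22.7 ± 0.447 in Δelav,fnenFNE and 22.2 ± 1.44 in elavnFNE. In each of these 6 comparisons with the control of the age no mutant library overlapped the control (exact permutation p = 0.0286 each, adjusted p = 0.0786). The late comparisons share the wild-type libraries and the early ones the fnenFNE libraries, so they are not independent. With the Simpson index in place of the entropy, late Δelav,fnenFNE overlapped wild type (exact permutation p = 0.0571). Antisense genes overlap the variants 9.11 and 9.31 to 9.33. Over the 29 variants clear of them, a restriction added once the values were known, the late mutants and early Δelav,fnenFNE kept apart from their controls, but elavmin,fnenFNE and elavnFNE overlapped the early control (differences of -2.76 and -2.74 variants, exact permutation p = 0.0571 each, adjusted p = 0.138). In heads it was 30.2 ± 0.479 in wild type, 30.2 ± 0.905 in elavmin and 31.5 ± 0.932 in Δelav,fnenFNE, and the groups overlapped. Over all 99 tests of single values, 36 had an exact permutation p under 0.05 and 0 an adjusted p under 0.05 (smallest adjusted p = 0.0786).

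The variant 9.9 rose in late embryos without full ELAV. It took 5.82%, 6.333%, 4.726% and 6.551% of exon 9 counts in wild type, 11.85%, 12.25%, 11.95% and 9.113% in Δelav and 13.48%, 13.97%, 13.38% and 14.58% in elavmin, with no overlap of either mutant with wild type. Its usage was higher in Δelav (log2 1.02, SE 0.158, adjusted p = 1.26e-07, edgeR exon usage test) and in elavmin (log2 1.4, SE 0.144, adjusted p = 2.97e-15), and it was the most used exon 9 variant in both. In Δelav,fnenFNE it took 8.343%, 8.696%, 9.184% and 10.93%, above all wild-type libraries, without passing the usage test (log2 0.71, adjusted p = 0.0236). There too it was the most used exon 9 variant on average. It took 6.99% ± 0.914 in the early control and 7.14% to 8.25% on average in the early mutants, and 3.81% to 5.06% in the 3 groups of heads. The bin of 9.9 (chr2R:7344279-7344569) overlaps no other annotated gene.

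Relative to the gene, wild-type heads used the exon 9 cluster more than late embryos did. Of 33 variants tested by edgeR 11 were called higher and 0 lower, beside 7.42% and 7.07% of all bins, with 21 at an unadjusted p under 0.05, and the median over the 33 was 0.87 on the log2 scale relative to the gene. These values include a rise shared by the whole cluster, which is not a choice among its variants. By their shares within the cluster, 8 of the 33 were higher and 3 lower in heads without overlap. No such count over all bins is given here to set beside it. Shares within a cluster also depend on each other, so no conclusion is drawn from this count. Within the cluster the leading variant was 9.30 in late wild-type embryos (8.23% ± 2.35) and 9.10 in heads (5.75% ± 1.17, against 2.91% ± 0.292 in embryos). The early control led with 9.31 (9.18% ± 1.36) and 9.30 (9.09% ± 2.12). An antisense gene, asRNA:CR45129, overlaps the variants 9.31 to 9.33, and another, asRNA:CR44071, overlaps 9.11, one of the 11 variants called higher in heads. The strand setting of the counting is not given in the sources used here, so reads of both cannot be told apart there. The first gene had 76 to 109 counts in late wild-type libraries, 30 to 67 in wild-type heads and 169 to 479 in the early control, and the second 16 to 32, 19 to 31 and 9 to 15.

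**Figure D4:**
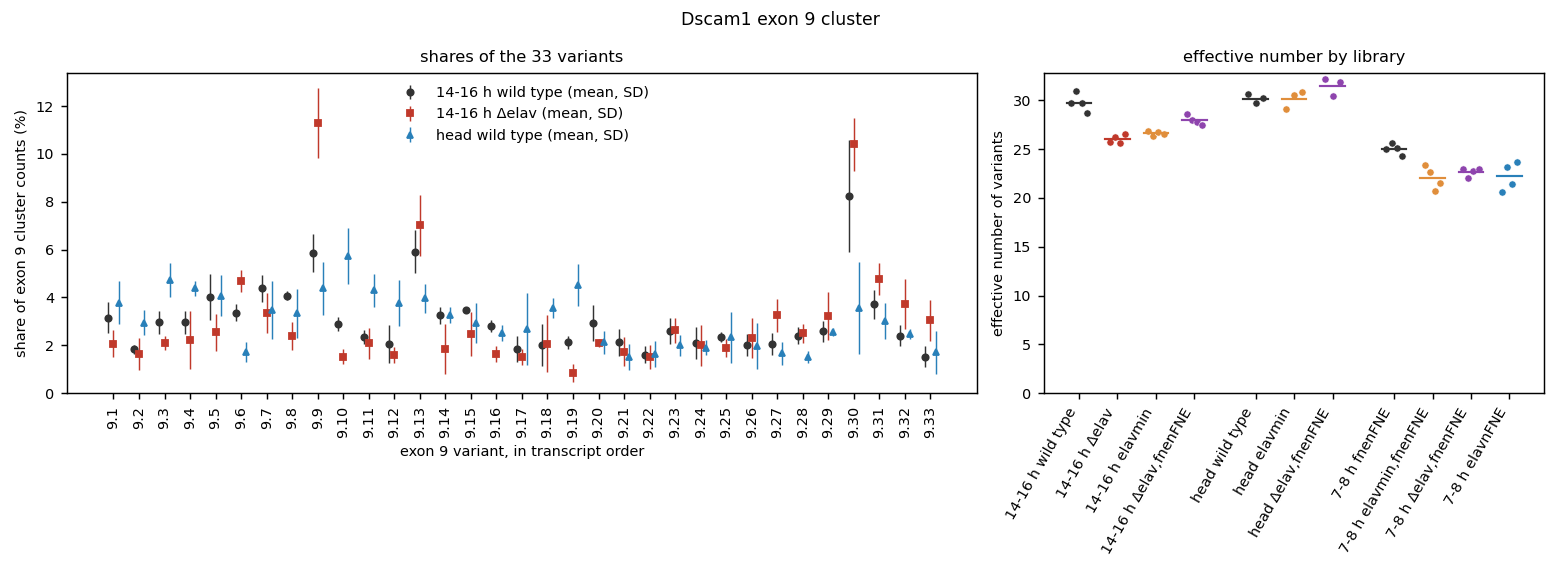
Dscam1 exon 9 cluster. Left, share (%) of the cluster's counts for each of the 33 variants, mean and SD over libraries, in late wild-type embryos (n = 4), late Δelav embryos (n = 4) and wild-type heads (n = 3); right, effective number of variants by library with group means. Variant 9.9 is the highest point of Δelav (11.3%) and the effective number is lower in each group of mutant embryos than in the control of its age.

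In the exon 4 cluster variant 4.7 was lower in elavmin late embryos than in wild type and Δelav, and variant 4.5 was lower than in Δelav. Variant 4.7 (chr2R:7364456-7364617) took 6.19% ± 1.18 of the cluster in elavmin, 10.5% ± 1.19 in wild type and 9.16% ± 0.592 in Δelav. Its usage relative to the gene fell against wild type (log2 -1.04, SE 0.22, adjusted p = 0.00188, edgeR exon usage test) and against Δelav (log2 -1.19, SE 0.235, adjusted p = 0.000999). The former call was lost without wild-type replicate 1 or 2 or elavmin replicate 3 or 4 (adjusted p = 0.0115 to 0.028), and the latter without elavmin replicate 4 (0.0232). Variant 4.5 (chr2R:7365018-7365179) took 5.77% ± 1.87 in elavmin, 7.55% ± 1.71 in wild type and 8.82% ± 0.692 in Δelav, and was called only against Δelav (log2 -1.28, SE 0.242, adjusted p = 0.000347), a call lost without elavmin replicate 2 (adjusted p = 0.0194). The whole cluster had fewer counts in elavmin (231 to 321) than in wild type (386 to 490) and Δelav (379 to 458), with no overlap, and the median over its 12 variants was -0.60 on the log2 scale against Δelav.

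In Dscam2 the alternative last exons and the extension of exon 19 differed between wild-type ages. The upstream last exon (chr3L:7163299-7163506) took 10.71%, 7.207%, 2.778% and 9.16% of counts shared with the start of the downstream last exon in late wild-type embryos and 36.8%, 36.31% and 35.24% in wild-type heads. Its usage rose (log2 2.37, SE 0.251, adjusted p = 7.1e-16 in edgeR). The 102-nt extension of exon 19 (chr3L:7164248-7164349) took 33.68%, 30.89%, 42% and 42.86% of exon 19 counts in late embryos and 15.41%, 17.37% and 11.14% in heads (log2 -1.81, SE 0.226, adjusted p = 4.47e-12). Neither pair of groups overlapped.

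Among mutants, the extension of Dscam2 exon 19 passed in elavmin late embryos (48.08%, 43.41%, 47.79% and 41.94%, log2 0.73, SE 0.187, adjusted p = 0.00881 in edgeR), although 2 of the 4 libraries lay within 1 percentage point of, or below, the highest wild-type library. The call was lost without wild-type replicate 2, 3 or 4 or elavmin replicate 1, 3 or 4 (adjusted p = 0.021 to 0.137), with no filter on low counts (0.0112) and with all late groups in 1 fit (0.121). In Δelav,fnenFNE heads the upstream last exon took 23.56%, 25.09% and 18.66%, below every wild-type head, without passing (log2 -0.90, SE 0.257, adjusted p = 0.0481). The photoreceptor and muscle values of these heads are given above.

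The exon 10 variants of Dscam2 overlapped between all groups compared. The downstream variant took 46% ± 6.05 of the pair in late wild-type embryos, 33% ± 8.63 in Δelav (exact permutation p = 0.0857), 44.6% ± 5.73 in elavmin and 41.7% ± 7.22 in Δelav,fnenFNE. In heads it took 39.6% ± 0.835 in wild type, 41.3% ± 4.49 in elavmin and 46.1% ± 5.71 in Δelav,fnenFNE. Late Δelav libraries held 14 to 23 counts on the downstream variant and wild-type libraries 34 to 60, and the size of difference that this depth could show was not computed. Early libraries had too few counts on the pair for a comparison.

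Dscam3 and Dscam4 each changed an exon boundary between ages. The 89-nt extension of the Dscam3 last exon (chr3R:17474917-17475005) took 26.97%, 23.26%, 24.19% and 17.61% of its counts with the exon before in late wild-type embryos and 33.33%, 35.99% and 37.61% in wild-type heads (usage log2 1.01, SE 0.155, adjusted p = 7.46e-07 in edgeR). The 69-nt extension of Dscam4 exon 30 (chr3L:8280260-8280328) took 53.22%, 51.27%, 50.83% and 54.68% in late embryos and 34.18%, 36.22% and 37.67% in heads (log2 -0.86, SE 0.163, adjusted p = 8.63e-06). Neither pair of groups overlapped, and both were singled out after their values were seen. In the mutants they were not called, with Dscam3 at 17.7% to 21.7% in the late mutants and 34.1% to 34.4% in mutant heads, and Dscam4 at 49.2% to 53.7% and 34.6% to 38.6%.

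**Figure D5:**
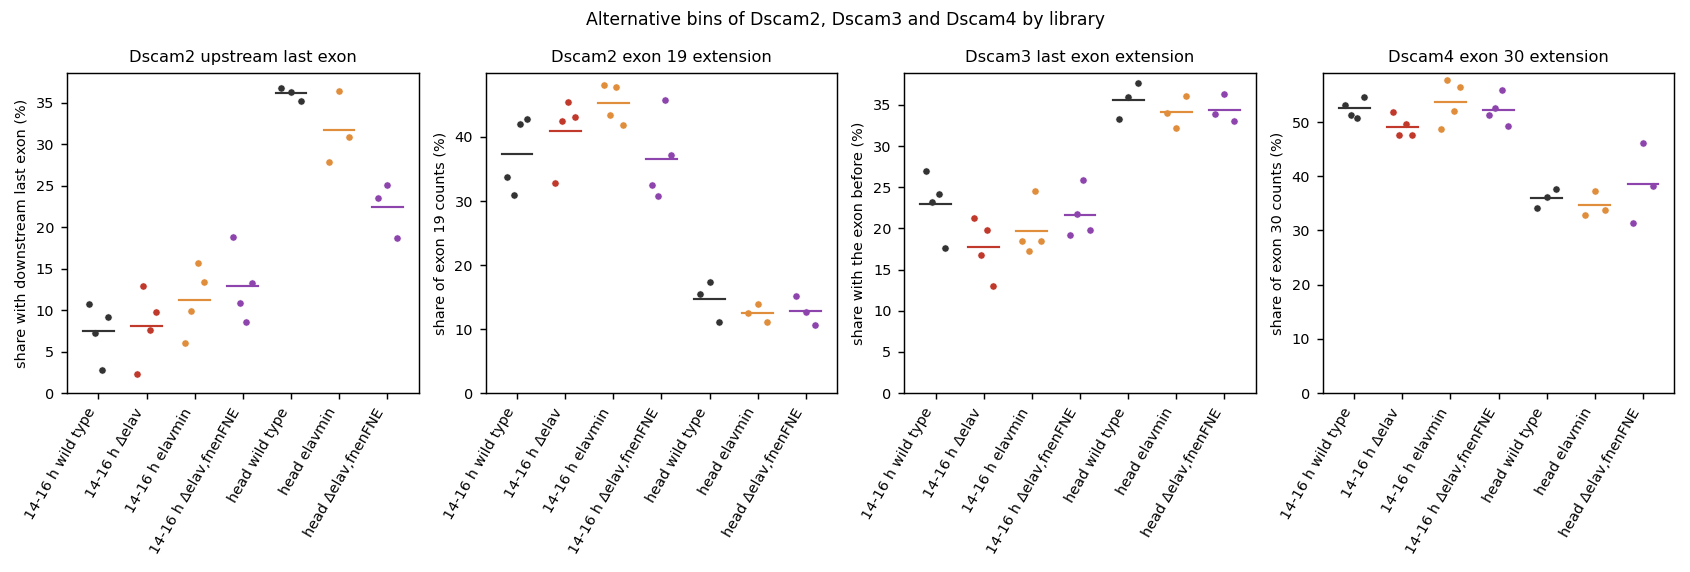
Shares (%) of 4 alternative bins of Dscam2, Dscam3 and Dscam4 in late embryos and heads, with points for libraries and horizontal lines for group means; each axis starts at 0. The late wild-type libraries lie on the other side of wild-type heads in every panel, for example 2.78% to 10.7% against 35.2% to 36.8% for the upstream last exon of Dscam2.

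A leader exon of Dscam3 was the only member bin called in mutant heads. This 405-nt bin (chr3R:17502545-17502949) is exon 3 of 1 of 4 annotated transcripts and holds no coding sequence. It took 11.29%, 8.163% and 10.71% of its counts with the exon before in wild-type heads, 18.18%, 15.71% and 19.64% in elavmin heads and 25.85%, 45.35% and 32.65% in Δelav,fnenFNE heads, and the 3 groups did not overlap. In late embryos the share varied widely, with 17.14%, 29.63%, 25.71% and 7.143% in wild type and 7.143% to 33.33% in the mutants. The counts behind these shares are not given here. The usage of this bin rose in Δelav,fnenFNE heads (log2 2.31, SE 0.378, adjusted p = 2.09e-05 in edgeR). The part of the photoreceptor, muscle and fat body values of these heads, given above, was not tested. It was 1 of 174 member bins tested (background 0.995%). In elavmin heads 0 of 168 were called by edgeR and by DESeq2, with 8 at an unadjusted p under 0.05 (background 0.919%). The interaction tests between heads and late embryos called 0 of 181 bins for elavmin (9 at an unadjusted p under 0.05, 1 by DESeq2, background 0.378%) and 0 of 184 for Δelav,fnenFNE (5, 0 by DESeq2, background 0.552%).

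The 3′ end bins of the other 3 genes were not called in Δelav late embryos. The distal bin of Dscam2 (chr3L:7159199-7160303) differed by -0.05 (SE 0.142), the last bin of Dscam3 (chr3R:17473935-17474916) by -0.09 (SE 0.121) and the distal bin of Dscam4 (chr3L:8281148-8282398) by -0.25 (SE 0.113) on the log2 scale, with adjusted p of 1, 1 and 0.585 in edgeR.

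Of 10 measured partners of the receptors, 2 were called in Δelav late embryos, where 22.7% of all genes were: dock, the adaptor that binds the Dscam1 tail, rose (log2 0.13, adjusted p = 0.0328 in edgeR) and Pak, the kinase it recruits, fell (log2 -0.16, adjusted p = 0.0248). The median over the 10 was 0.06, beside 0.01 over all genes. In elavmin late embryos (background 29.7%) 2 fell, the netrin gene NetB (log2 -0.21) and sli, which encodes the ligand Slit (log2 -0.15), and in Δelav,fnenFNE (25.6%) 1 fell, NetB (log2 -0.17). In early embryos dock fell in elavmin,fnenFNE (log2 -0.26) and Δelav,fnenFNE (log2 -0.28), the kinase gene Abl fell in the former (log2 -0.19), and NetB rose in elavnFNE (log2 0.53), beside backgrounds of 6.4%, 2.96% and 9.71% in elavmin,fnenFNE, Δelav,fnenFNE and elavnFNE. In Δelav,fnenFNE heads, where 28.3% of all genes were called, 4 of 10 fell: Pak (log2 -0.96, adjusted p = 9.14e-06), the netrin receptor gene fra (log2 -0.42), Abl (log2 -0.35) and trio, a guanine nucleotide exchange factor (log2 -0.30). The photoreceptor markers of these heads summed to 471 to 508 CPM against 56250 to 59520 CPM in wild type, and their part in these values was not tested. In elavmin heads (background 20.2%) Pak alone of the 10 fell (log2 -0.54, adjusted p = 0.000449).

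Of 9 genes whose products act on Dscam RNA or protein, 4 rose in Δelav late embryos and 0 fell, where 22.7% of all genes were called: elav, the altered locus itself (log2 1.76), its paralogue Rbp9 (0.27), mbl, which encodes the splicing factor Muscleblind (0.20), and Hrb87F, which encodes an hnRNP protein (0.23). In elavmin late embryos (background 29.7%) elav (0.99) and Hrb87F (0.28) rose and hiw, which encodes a ubiquitin ligase, fell (-0.16). In Δelav,fnenFNE late embryos (25.6%) elav (1.80), fne (0.69), Rbp9 (0.27) and Hrb87F (0.36) rose. In Δelav,fnenFNE heads (28.3%) elav (2.22) and Hrb87F (0.35) rose, and Rbp9 (-1.10), B52 (-0.41), mbl (-0.31) and the kinase gene wnd (-0.45) fell. All are log2 differences with an adjusted p under 0.05 in edgeR. Transcripts of elav in these mutants come from altered loci.

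Between wild-type ages all 10 partners differed, 3 higher and 7 lower in heads, which is close to the background of 85.1% of all genes. Pak, Abl and trio were higher (log2 1.05, 1.06 and 1.05), and NetA, which encodes a netrin, was lowest (log2 -4.47), followed by ena, which encodes a substrate of Abl (-1.97), and fra (-1.77). Of the 9 regulators, Rbp9 was the most increased (log2 3.48), and mbl, elav and fne were not called.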

How the data were processed

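Poly(A) RNA of 41 libraries was measured. The authors aligned reads to dm6 with STAR and deposited, per exon bin of the Ensembl annotation, unnormalized read counts in 8 tables. The submitters' processing notes also name Subread and featureCounts. Columns of the authors' own comparisons (fold changes and p-values of exon usage), and the lists of 3′ UTR targets made from them, were not used. The score column of the deposited BED files was 0 throughout and not used.

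Counts were read from 84619 bins; 78 continuation lines per table were left out, and 19 columns repeated between tables were identical. Libraries of 1 group differed beyond sampling noise (chi-square per degree of freedom at least 4.69). Labels do not say whether replicates were separate cultures or crosses, so p-values measure the spread between these pools. Gene totals were tested with edgeR 4.0.16 (quasi-likelihood, TMM, filterByExpr, robust, R 4.3.3), called at an adjusted p under 0.05, and bin usage relative to the gene with edgeR's diffSpliceDGE, called under 0.01 over all bins. P-values were Benjamini-Hochberg adjusted. Single values per library were compared by exact two-sided permutation tests (scipy 1.17.1). The gene and bin fits were tested on simulated data. CPM is a gene's count scaled in the usual way to the library's total count on bins.

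The members and lists were chosen with earlier results of these data known. Named bins were the 3′ end bins, the listed alternative bins and the 3 called bins with the smallest adjusted p in each comparison. Variants 9.10, 9.30 and 9.31, exons 2, 3, 7 and 8, and the extensions in Dscam1, Dscam3 and Dscam4 were named after their values were seen. Shares of bins chosen that way have no test. Alternatives were DESeq2 1.42.0, its size factors, no filter, all groups of an age in 1 fit, a replicate block, a looser bin threshold, leaving out each library, gene totals without called bins, shares per base, the Simpson index and, added after seeing the data, exon 9 without variants under antisense genes.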

Additional observations from a re-analysis of the deposited data

Results flagged for a closer look

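In 5 of 136 groups of 4 libraries 1 library stood apart from the rest by Dixon's criterion, which chance alone meets in about 1 in 20 groups. Dscam3 had 71.35 CPM in late wild-type replicate 1, above the other 3 libraries (64.45 to 65.4 CPM). Dscam1 exon 23 had a share of 12.55% in late Δelav,fnenFNE replicate 3. Dscam1 exon 9.9 had a share of 9.113% in late Δelav replicate 4, below the other 3 (11.85% to 12.25%) and above every wild-type library. The extension of the Dscam3 last exon had a share of 24.58% in late elavmin replicate 3. The extension of Dscam2 exon 19 had a share of 0% in early elavnFNE replicate 3, where a library of that group held 0 to 2 counts on it.

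The log2 change of Dscam1 from wild type differed between heads and late embryos by 0.49 in elavmin and by 0.49 in Δelav,fnenFNE (edgeR interaction tests, adjusted p = 0.00399 and 0.016).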

How the results depend on the processing

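No gene total or bin that passed in the results above or in an alternative changed its direction. Changes of sign among those that passed in neither were not counted. Testing without a filter, scaling by the size factors of DESeq2 and leaving out bins called for usage kept every count of calls within 1.5 times, and scalings moved the median of all genes by at most 0.0274 (log2). With all groups of an age in 1 fit, genes called were 1 (from 2) in late elavmin, where Dscam2 lost its call, and 0 (from 1) in elavmin against Δelav, and bins called were 1 (from 0) in late Δelav,fnenFNE and in its interaction with age. DESeq2 called 2 genes (from 1) in elavmin against Δelav and in the Δelav,fnenFNE interaction, and 2 bins (from 0) in late Δelav,fnenFNE, 2 (from 1) in Δelav,fnenFNE heads, 3 (from 1) in Δelav,fnenFNE against Δelav and 1 (from 0) in the elavmin interaction. At a bin threshold of 0.05 the counts were 9 (from 5) in late Δelav, 6 (from 3) in late elavmin, 1 (from 0) in late Δelav,fnenFNE, in elavmin heads and in both interactions, and 2 (from 1) in Δelav,fnenFNE heads and in elavnFNE against Δelav,fnenFNE. The causes were not tested.

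Replicates share only a number: correlations of same-numbered deviations ran from -0.486 to 0.629, and no comparison had all above 0.1. With a replicate block the genes called were 2 (from 1) in late Δelav, with Dscam4 added (log2 -0.18, adjusted p = 0.0374), 2 (from 0) in elavmin heads, namely Dscam1 (log2 0.22, adjusted p = 0.0144) and Dscam2 (log2 -0.29, adjusted p = 0.00335), 0 (from 1) in early Δelav,fnenFNE, where Dscam4 kept its log2 change (1.04, adjusted p = 0.0844), and 3 (from 1) in elavmin against Δelav, and no other count of calls moved by over 1.5 times. Under the block the bins of the Dscam2 exon 19 extension in late elavmin (adjusted p = 0.0143) and the proximal Dscam1 exon 24 between wild-type ages (0.0124) were not called.

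Leaving out 1 library moved 25 counts of calls and kept 229. Genes called ranged from 1 to 3 in late Δelav, 2 to 3 in late Δelav,fnenFNE, 0 to 1 in elavmin heads, 1 to 3 in Δelav,fnenFNE heads, 1 to 2 in early elavnFNE and in the Δelav,fnenFNE interaction, and 0 to 2 in elavmin against Δelav. Bins called ranged from 5 to 6 in late Δelav, 1 to 4 in late elavmin, 0 to 1 in late Δelav,fnenFNE, elavmin heads, early elavnFNE and the Δelav,fnenFNE interaction, 1 to 2 in Δelav,fnenFNE heads, Δelav,fnenFNE against Δelav and elavnFNE against Δelav,fnenFNE, 2 to 4 in elavmin against Δelav, and 20 to 24 between wild-type ages.

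With the Simpson index in place of the entropy, groups that had not overlapped did so in 5 differences of effective number. For exon 6 between wild-type ages the difference went from -7.945 to -3.311 (exact permutation p = 0.0286 and 0.5143). For exon 4 it went from 0.527 to 0.548 in early Δelav,fnenFNE, from 0.414 to 0.434 in elavmin,fnenFNE and from -0.743 to -0.831 in elavnFNE against Δelav,fnenFNE (exact permutation p = 0.0286 each, then 0.143, 0.0571 and 0.0857). For exon 9 in late Δelav,fnenFNE it became -3.295 (exact permutation p = 0.0571). Heads held 70 to 199 counts on exon 6, so single variants there were at the limit of depth.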
